A study of Homo sapiens with 12 samples.

Results

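Chromosome 19 carries the largest group of zinc finger genes in the human genome, and 246 of them were measured here. They are the protein-coding genes of chromosome 19 whose name is ZNF followed by a number and, in some, a letter, taken from a table of 58735 genes that holds 19951 protein-coding genes, 1472 of them on chromosome 19. RNA was sequenced from the granulosa cell tumor (GCT) lines KGN and COV434, each untreated and treated with 77-39, a small molecule inhibitor of the mitochondrial deacetylase SIRT3. Each of the 4 groups had 3 libraries. Both lines are labelled WT and were grown in DMEM/F-12 with serum, and 77-39 was given for 72 h at what the labels write as 10 um/ml, a unit that leaves the concentration undefined. The labels do not say whether the 3 libraries of a group came from separate cultures, so the p-values measure the spread between these libraries, which may be technical.

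Most zinc finger proteins of this chromosome bind DNA through a row of C2H2 fingers, each a short loop folded around a zinc ion, and many carry a KRAB domain in front of them. The KRAB domain recruits TRIM28, also called KAP1, which brings the histone methyltransferase SETDB1 and HP1 proteins and so compacts chromatin. Many of these proteins bind transposable elements, and the genes lie in clusters that arose by repeated gene duplication. A smaller number of members carry few fingers and lack KRAB.

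Several genes that mark the origin of the lines did not follow the labels, and the groups are therefore called libraries labelled KGN and libraries labelled COV434. FOXL2, the transcription factor that defines granulosa cells, was between 0 and 0.0195 FPKM in the 6 libraries labelled KGN and between 11.5 and 14 FPKM in those labelled COV434. SMARCA2, a chromatin remodeling ATPase, was at most 0.0087 FPKM under the KGN label and at least 4.51 FPKM under the COV434 label. WT1 was between 45.9 and 61.4 FPKM under the KGN label and 0 under the COV434 label. Of the 13 markers listed, AMH was detected under both labels, at 4.07 to 4.83 FPKM under the KGN label and 5.45 to 9.14 FPKM under the COV434 label. INHA was 0.580 to 1.22 FPKM against 2.40 to 5.22 FPKM, INHBB at most 0.0886 FPKM against 6.32 to 9.17 FPKM, and SMARCA4 2.25 to 2.60 FPKM against 6.51 to 12.6 FPKM. FSHR, NR5A1, GATA4, AMHR2, CYP19A1 and INHBA were at most 0.161 FPKM in all 12 libraries. Between 15547851 and 18280415 reads fell on genes in a library. Mitochondrial genes took 13.5% of them in treated library 1 labelled COV434 and 7.30% to 9.63% in the other 11.

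The members fell into 16 groups along the chromosome when neighbours with starts less than 1 Mb apart were joined, and 235 of them lay in the 9 groups of 5 or more, called clusters here and numbered from the short arm. Cluster 16, at the end of the long arm (chr19:55476332-58481230, GRCh38), held 59 members, cluster 15 (chr19:51571298-53580269) held 39, cluster 5 around ZNF91 (chr19:19668796-24129961) held 37 and cluster 9 (chr19:36182060-37817300) held 26. A search for the C2H2 pattern in the longest coding sequence of each member found between 0 and 36 fingers, with a median of 12. ZNF738 had none, and ZNF414 and ZNF428 had 1 each.

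The family is poor in GC. The median GC content of the exons was 43.3% over the 246 members, with a range of 33.9% to 71.1%, against 48.9% over 19922 protein-coding genes. GC content and number of fingers were inversely related across members (Pearson r = -0.31, n = 246, genes that share ancestry and are not independent). The 14 members with 5 fingers or fewer had a median GC content of 60.1%, and the 56 members with 16 or more had 41.9%. A short motif gives an example from a part of each class at the level of sequence. It is the in-frame stretch of 6 codons found in the most members of each class, and its capitals mark the 5 codons that code for the same residues in both, the last histidine of a finger and the start of the linker to the next. The classes were set by GC content, which favours a GC-poor spelling in the first and a GC-rich one in the second.
Members under 50% GC: attCATACTGGAGAGAAA
Members at 50% GC or more: CACACGGGCGAGAAGccc
The first stretch occurred 304 times in 78 of the 212 members under 50% GC and in 0 of the 34 others. The second occurred 12 times in 8 of those 34 members and in 0 of the 212. Of the 5 shared codons, 4 were spelled differently, with 6 of 15 bases being G or C in the first and 10 of 15 in the second. Outside the genes of this name pattern, the stretches were found in the longest transcript of 0.0515% and 0.0567% of 19413 protein-coding genes.

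Repeats of this kind can make reads ambiguous. Of the 246 members, 148 shared no run of 100 bases with a transcript of another gene, and 16 shared more than 20% of such runs. Of those 16, 4 were tested in the libraries labelled KGN. Exons of another gene on the same strand covered more than 20% of the exon bases in 18 members and exons on the opposite strand in 9. How the authors' counting treated strand and shared reads is not given in the sources used here, so values of such members are uncertain, and the members named below are marked where this holds.

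More members were transcribed in the libraries labelled KGN than in those labelled COV434, and their summed level was higher. FPKM is the number of fragments on a gene per kilobase of its exons and relative to a library total, so levels can be compared between genes. That total was a mean of 1.09 times the reads on genes in untreated libraries labelled KGN and 0.94 times in those labelled COV434. Of the reads on genes, members took a mean of 0.316% and 0.132% in these 2 groups. Summed over the 246 members, the level was 569, 572 and 575 FPKM in untreated and 610, 602 and 602 FPKM in treated libraries labelled KGN. In the libraries labelled COV434 the sums were 303, 324 and 299 FPKM untreated and 315, 303 and 289 FPKM treated. The sums of treated and untreated libraries did not overlap under the KGN label and overlapped under the COV434 label. In bulk RNA, fewer cells that express a gene and less RNA of it per cell cannot be told apart.

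**Figure D1:**
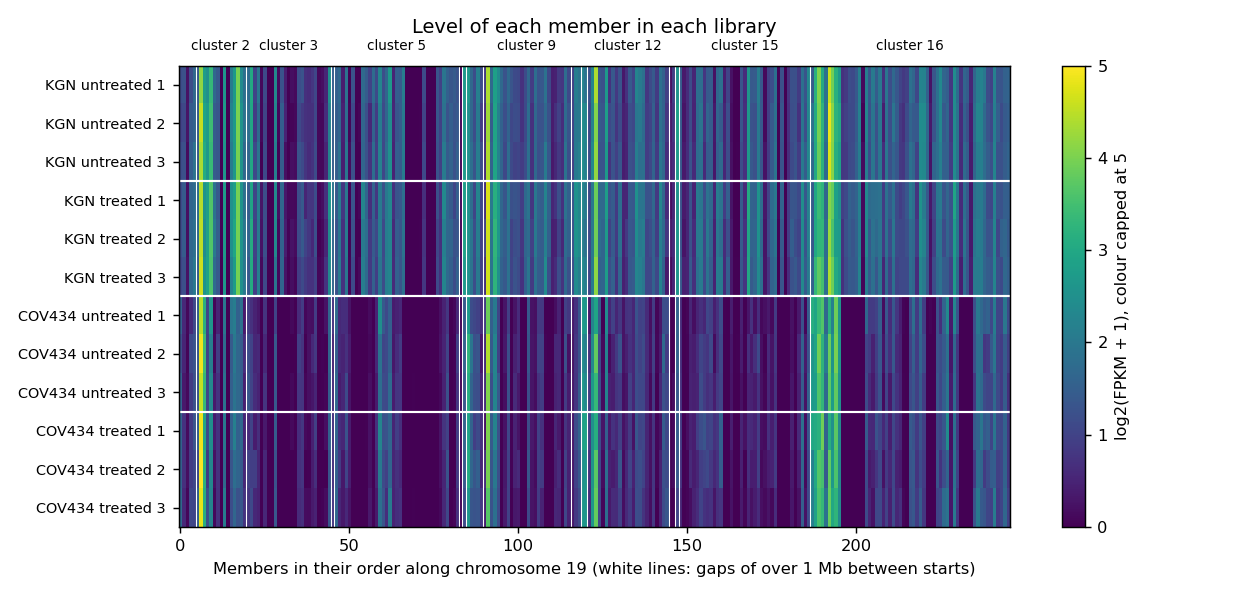
Level of each of the 246 members, in their order along chromosome 19, in each of the 12 libraries, as log2(FPKM + 1) by colour, with white vertical lines at gaps of over 1 Mb between gene starts. The libraries labelled COV434 hold many more dark columns, 49 members at 0 against 10 in those labelled KGN, and a run of members inside cluster 5 is dark in all 12.

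By the mean of the 6 libraries labelled KGN, 171 members reached 1 FPKM, 50 lay between 0.1 and 1 FPKM, 15 were above 0 and under 0.1 FPKM and 10 had no reads. Under the COV434 label these numbers were 78, 93, 26 and 49. Of all 58735 genes, 12671 reached 1 FPKM by this mean under the KGN label and 12060 under the COV434 label. Above 0 were 32824 and 27780 of them. Of all members, 77 reached 1 FPKM under both labels, 94 under the KGN label alone, 1 under the COV434 label alone and 74 under neither. No reads in any of the 12 libraries were found for 8 members, 6 of which lie in cluster 5.

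The most abundant members were mostly GC-rich. ZNF358, a GC-rich gene of cluster 2, had the highest mean over the 12 libraries, with 17.1, 22.5 and 19.7 FPKM in untreated libraries labelled KGN and 21.2, 28.7 and 22.6 FPKM in those labelled COV434. Exons of another gene on the same strand cover 20.2% of its exon bases. ZNF146, a protein that consists almost only of fingers, followed with 19.9, 18.5 and 20.2 against 13.7, 20.4 and 15.7 FPKM, and ZNF580 with 22.8, 27.8 and 25.7 against 8.23, 13.7 and 12.5 FPKM. The levels of ZNF358 and ZNF146 overlapped between the labels and those of ZNF580 did not. The next 7 by mean level were ZNF428, ZNF524, ZNF787, ZNF581, ZNF865, ZNF561 and ZNF317. Of the 10, 8 had a GC content of at least 50%, and ZNF146 and ZNF561 had 41.7% and 44.0%.

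To compare the lines, the untreated libraries were fitted with limma on log2(FPKM + 1), over the 13098 genes whose mean in these 6 libraries reached 1 FPKM. At an adjusted p under 0.05, 32.6% of all genes tested were higher in the libraries labelled KGN and 36.4% were lower. Of the 127 members tested, 95 were higher and 5 lower. The 51 tested members under 1 FPKM in untreated COV434 passed the filter through the KGN label alone. The filter favours a difference in that direction among them, so their calls are not read as a result. Among the 76 members at 1 FPKM or more in both untreated groups, 46 were higher in the libraries labelled KGN, 5 were lower and 25 were not called, against 28.1% higher and 34.3% lower of the 10182 genes with such levels. The median log2 difference was 0.48 over these 76 members and -0.04 over those genes. Rescaling the libraries to their reads on genes moved the median of all 13098 genes tested from -0.02 to 0.16, and the counts of tested members from 95 and 5 to 103 and 3.

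On the log2(FPKM + 1) scale ZNF561 had the largest difference, with 14.7, 15 and 14.8 FPKM in untreated libraries labelled KGN and 1.88, 2.16 and 2.25 FPKM in those labelled COV434. This is a 7.08-fold difference in mean FPKM and 2.36 ± 0.08 (SE) on that scale (adjusted p = 6.3e-07). ZNF627 (7.22, 6.94 and 6.97 against 0.646, 0.999 and 1.05 FPKM) was 7.85-fold higher and ZNF83 (5.13, 5.37 and 5.36 against 0.225, 0.608 and 0.417 FPKM) 12.7-fold higher. The groups of ZNF561 did not overlap. ZNF569 had 767 reads in the untreated libraries labelled KGN and 4 under the COV434 label, and ZNF85 had 596 and 2. ZNF91, which represses young retrotransposons of the SVA family, was 2.85, 2.67 and 3.21 FPKM against 0.400, 0.419 and 0.374 FPKM, a 7.32-fold difference. Except for ZNF561, these members reached 1 FPKM in untreated libraries of the KGN label alone. The filter favoured this direction for them, so their levels and folds are given as values and not read as a result.

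**Figure D2:**
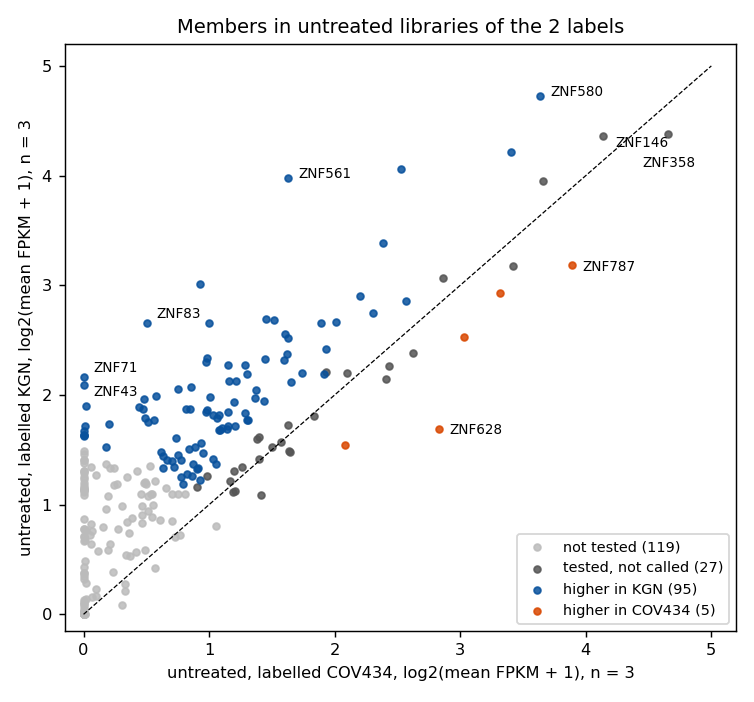
Mean level of each member in the 3 untreated libraries of each label, as log2(mean FPKM + 1), with colours for the call at an adjusted p under 0.05 and a dashed line where both are equal. Of the tested members, 95 lie above the line as higher under the KGN label and 5 below it, and a column of members stands at 0 on the COV434 axis.

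In 20 members, no read was found in any of the 6 libraries labelled COV434 although the mean of the libraries labelled KGN was at least 1 FPKM, and the reverse was found in 0 members. Of these 20, 9 lie in cluster 16, 4 in cluster 5, 3 in cluster 9, 3 in cluster 15 and 1 in cluster 3. How many of all genes show either pattern was not counted, so these numbers are not read as a result about the members. ZNF71 (ENSG00000197951, chr19:56595264-56626481, plus strand) was 3.52, 3.59 and 3.32 FPKM in untreated libraries labelled KGN, from 1184 reads. Against the 3 reads over a group of 3 libraries that a count of 0 allows, this is at least 360-fold higher. ZNF43 (ENSG00000198521, chr19:21804949-21852125, minus strand), a KRAB zinc finger gene of cluster 5, was 3.32, 3.18 and 3.28 FPKM, at least 473-fold higher by the same floor, and ZNF737 was at least 129-fold higher. These bounds cover counting error only. The members were picked for having no reads under the COV434 label, so the direction of the bounds follows from that choice.

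The promoters of 2 members without reads under the COV434 label, ZNF71 and ZNF43, are shown beside those of ZNF146, abundant under both labels, and ZNF580, the most abundant member of untreated libraries labelled KGN. They are RefSeq sequences of GRCh38.p14 from 250 bases before to 50 after a transcript start of that annotation, read along the gene, with each CG dinucleotide, the site of DNA methylation, in capitals. CG reads the same on both strands and was counted once.
ZNF71 (chr19:56595052-56595351, plus strand): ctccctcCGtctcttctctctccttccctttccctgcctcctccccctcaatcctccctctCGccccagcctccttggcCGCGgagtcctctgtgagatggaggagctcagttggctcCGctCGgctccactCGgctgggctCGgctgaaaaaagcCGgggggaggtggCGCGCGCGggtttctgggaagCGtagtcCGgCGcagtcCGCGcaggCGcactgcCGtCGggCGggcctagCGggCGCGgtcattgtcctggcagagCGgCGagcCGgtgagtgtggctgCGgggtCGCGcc
ZNF43 (chr19:21836133-21836432, minus strand): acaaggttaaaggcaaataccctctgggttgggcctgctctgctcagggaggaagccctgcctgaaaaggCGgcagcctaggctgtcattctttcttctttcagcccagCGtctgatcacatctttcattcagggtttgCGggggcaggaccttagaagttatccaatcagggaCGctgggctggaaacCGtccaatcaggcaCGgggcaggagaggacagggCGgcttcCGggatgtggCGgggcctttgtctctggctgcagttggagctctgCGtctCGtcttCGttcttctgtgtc
ZNF146 (chr19:36214856-36215155, plus strand): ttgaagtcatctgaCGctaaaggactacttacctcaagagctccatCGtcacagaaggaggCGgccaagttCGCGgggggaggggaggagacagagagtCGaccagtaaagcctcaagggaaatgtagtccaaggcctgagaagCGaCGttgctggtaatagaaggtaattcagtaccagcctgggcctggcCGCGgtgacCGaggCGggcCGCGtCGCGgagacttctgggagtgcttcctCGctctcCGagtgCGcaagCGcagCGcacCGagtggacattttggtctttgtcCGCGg
ZNF580 (chr19:55640752-55641051, plus strand): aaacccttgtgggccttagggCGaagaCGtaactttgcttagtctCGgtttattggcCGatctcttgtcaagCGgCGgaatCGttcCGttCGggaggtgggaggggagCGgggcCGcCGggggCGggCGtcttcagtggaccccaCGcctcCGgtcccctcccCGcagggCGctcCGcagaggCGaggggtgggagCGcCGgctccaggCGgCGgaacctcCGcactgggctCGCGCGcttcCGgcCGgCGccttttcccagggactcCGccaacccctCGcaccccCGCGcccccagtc
The RefSeq starts lie 38, 15943, 504 and 5986 bases inside the genes as measured, so those of ZNF43 and ZNF580 are internal starts, and ZNF580 has 3 promoters in the table, of which the first is shown. They hold 31, 12, 24 and 35 CG dinucleotides. Of the 246 members, 215 had a promoter in that table, of which the first was taken, with a median of 20 CG dinucleotides, and 93.5% of them held at least 10, against a median of 14 and a share of 56.4% over 35116 promoters of all genes. The 19 matched members without reads under the COV434 label had a median of 22, as did the 71 matched members at 1 FPKM or more under both labels. The 60 matched members under 1 FPKM under both labels had a median of 16.5. At least 10 were held by 89.5%, 97.2% and 91.7% of these 3 groups. These counts are descriptions of the sequence, and methylation was not measured.

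The members higher in the libraries labelled COV434 were ZNF628, ZNF787, ZNF587B, ZNF302 and ZNF414, and 3 of these 5 have a GC content above 60%. ZNF628 (GC 70.4%) was 1.72, 2.71 and 2.27 FPKM in untreated libraries labelled KGN and 7.71, 5.21 and 5.45 FPKM in those labelled COV434, a log2 difference of -1.13 ± 0.17 (SE, adjusted p = 0.00103). ZNF787 was 8.02, 8.43 and 7.78 against 13.9, 14.8 and 12.7 FPKM (adjusted p = 0.000378). The groups of both members were apart. With libraries rescaled to their reads on genes, ZNF302 (adjusted p = 0.132) and ZNF414 (adjusted p = 0.157) were no longer called. Exons of other genes on the same strand cover 14.6% of the exon bases of ZNF587B.

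Treatment with 77-39 was next compared within the libraries labelled KGN. Most of the members that rose were poor in GC and coded for many fingers, as is usual in the family. Of the 12 members that fell, 6 had a GC content of at least 50%, against 28 of the 171 tested. Of the 12671 genes tested, 17.6% rose and 16.4% fell at an adjusted p under 0.05. Among the 171 members tested, 33 rose and 12 fell. At the unadjusted p under 0.05 used in the study, 55 members rose and 17 fell, against 23.7% and 21.6% of all genes. The median log2 difference was 0.11 over the members and 0.01 over all genes tested, and 120 of the 171 members had a positive value. As shares of the 171 members, these are 19.3% and 7.02% at the adjusted and 32.2% and 9.94% at the unadjusted threshold. Whether these shares differ from those of all genes was not tested. Leaving out 1 library at a time gave 19 to 34 members that rose and 3 to 11 that fell, and treated library 1 decided the lowest value of both.

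The 33 members that rose had a median GC content of 41.1% and a median of 14 fingers, with log2 differences between 0.24 and 0.51. The 12 that fell had a median GC content of 51.0% and 5.5 fingers, with log2 differences between -0.48 and -0.17. For comparison, the 171 members tested had a median GC content of 43.7%, and all 246 members a median of 12 fingers.

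Among the members that rose, ZNF28 (ENSG00000198538, chr19:52797409-52857600) had the smallest p, with 3.32, 3.16 and 3.16 FPKM in untreated and 4.92, 4.84 and 4.36 FPKM in treated libraries, a log2 difference of 0.43 ± 0.06 (SE, adjusted p = 0.00234). Its neighbour in cluster 15, ZNF83, went from 5.13, 5.37 and 5.36 to 7.18, 6.71 and 6.94 FPKM (log2 difference 0.34, adjusted p = 0.00259). ZNF780B, a gene of 21 fingers, went from 3.33, 3.02 and 3.12 to 4.87, 4.96 and 4.30 FPKM (log2 difference 0.46, adjusted p = 0.00291). In all of them every treated library lay above every untreated one. This was required of the members named by p in this comparison, here and below, and is no separate result. ZNF761 and ZNF766, also of cluster 15, had log2 differences of 0.47 and 0.45.

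ZNF146 was the most abundant member that rose, from 19.9, 18.5 and 20.2 to 25.6, 23.9 and 24.2 FPKM (log2 difference 0.32 ± 0.05, adjusted p = 0.0046). Exons of ZNF565 on the opposite strand cover 10.8% of its exon bases. ZNF260, a neighbour in cluster 9, went from 6.18, 6.54 and 6.66 to 7.93, 8.74 and 8.48 FPKM (log2 difference 0.33, adjusted p = 0.00429). Treated libraries were above untreated ones in both. In cluster 5, ZNF737 and ZNF708 rose with log2 differences of 0.47 and 0.39. ZNF468 also rose (log2 difference 0.41, adjusted p = 0.00513), but 99.1% of the 100-base runs of its longest transcript occur in another gene, so its value is uncertain. ZNF222 of cluster 12, named after its values were seen, had the largest log2 difference of the 33 members, 0.51 (adjusted p = 0.00707).

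Among the members that fell, ZNF580 (ENSG00000213015, chr19:55635016-55643469, GC 62.8%, 3 fingers) went from 22.8, 27.8 and 25.7 to 16, 18 and 19.8 FPKM, a log2 difference of -0.48 ± 0.10 (SE, adjusted p = 0.00951). ZNF581, which overlaps it on the same strand, went from 14.3, 16.6 and 16.1 to 13.1, 11.1 and 13.9 FPKM (log2 difference -0.29, adjusted p = 0.0444), and reads of the shared exons cannot be told apart. ZNF524, of the same cluster, went from 15.3, 14.5 and 13.5 to 9.56, 8.85 and 12.5 FPKM (log2 difference -0.46, adjusted p = 0.0237). The highest treated library was below the lowest untreated library in each. ZNF787 (GC 65.3%) and ZNF414 (GC 63.1%, 1 finger) fell by 0.30 and 0.41 on the log2 scale, and ZNF576 (GC 52.2%) fell by 0.23.

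The remaining members that fell were not GC-rich. ZNF43, without reads under the COV434 label, went from 3.32, 3.18 and 3.28 to 2.56, 2.72 and 2.54 FPKM (log2 difference -0.24 ± 0.06, adjusted p = 0.0162). ZNF738 of the same cluster (GC 37.8%) went from 5.47, 4.47 and 4.68 to 3.98, 3.75 and 3.78 FPKM (adjusted p = 0.0262). Treated and untreated libraries were apart in both, with all treated libraries lower. ZNF586 (GC 48.6%), ZNF772 (42.7%) and ZNF551 (44.7%), all of cluster 16, fell by 0.36, 0.29 and 0.25 on the log2 scale. ZNF331, an imprinted gene of cluster 15, fell by 0.17 (adjusted p = 0.0447). The calls of ZNF772 and ZNF551 held in 8 of 17 alternatives and those of ZNF524, ZNF576 and ZNF738 in 10 of 17. Each of these 5 was lost without treated library 1 and without treated library 2, with adjusted p between 0.055 and 0.101. The calls of ZNF787 and ZNF43 held in 11 and 14 of 17. In 1 fit of all 12 libraries, 12 of the members named by p, risen or fallen, lost the call and 8 kept it.

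**Figure D3:**
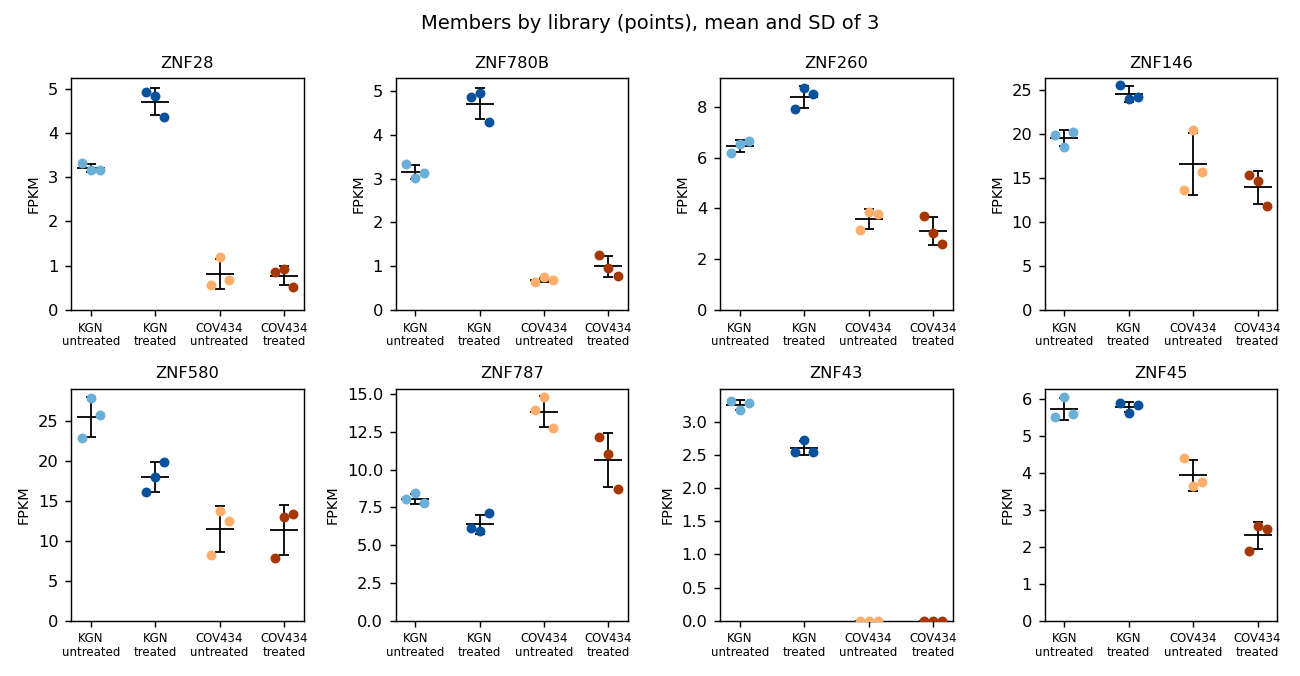
FPKM of 8 members in each library (points), with the mean (bar) and SD of the 3 libraries of each group. ZNF28, ZNF780B, ZNF260 and ZNF146 are higher and ZNF580, ZNF787 and ZNF43 lower in treated than in untreated libraries labelled KGN, ZNF43 is at 0 in the 6 libraries labelled COV434, and ZNF45 has a mean of 3.94 FPKM in untreated and 2.31 FPKM in treated libraries of that label.

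The change in the libraries labelled KGN followed GC content among all genes, and members followed the same course. The Pearson correlation of log2 difference and GC content was -0.44 over 171 members and -0.32 over 12664 genes, which share libraries and are not independent. Below 40% GC, 10 of 27 members rose and 1 fell, against 34.5% and 6.16% of 2078 genes. Between 40% and 45%, 19 of 81 members rose and 3 fell, against 25.2% and 10.2% of 2830 genes. Between 45% and 50%, 3 of 35 members rose and 2 fell, against 16.5% and 12.3% of 2292 genes. At 50% or more, 1 of 28 members rose and 6 fell, against 7.7% and 25.2% of 5464 genes. Weighted by reads, the mean exon GC content of genes was 48.5%, 48.6% and 48.5% in untreated libraries labelled KGN. In treated ones it was 47.8%, 47.8% and 48%. It is computed from the gene counts, so it moves when GC-poor genes rise and is no separate measure. The GC content of the reads themselves was not measured, and a part of GC content in the changes was not tested.

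**Figure D4:**
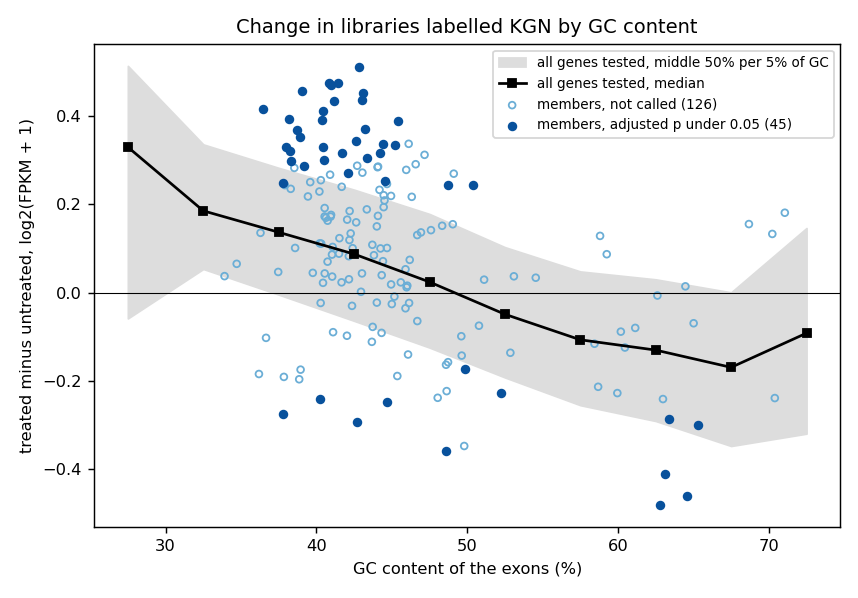
Treated minus untreated difference on the log2(FPKM + 1) scale in libraries labelled KGN against the GC content of the exons, for the 171 members tested (circles, filled at an adjusted p under 0.05), with the median and the middle 50% of all genes tested per 5% of GC. Filled circles above 0 lie almost all under 46% GC and those of ZNF580, ZNF524, ZNF414, ZNF787 and ZNF581 above 60%, and the median of all genes falls along the same axis.

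In another fit, the trend of each library's deviation from the gene means of these 6 libraries along GC content was removed. This also takes out any treatment change that follows GC content, whatever its origin. With this GC trend removed, 21 members rose and 16 fell, against 14.7% and 15.7% of all genes, and the median of the members was 0.05. ZNF28, ZNF83, ZNF780B, ZNF761, ZNF766, ZNF260, ZNF146, ZNF737, ZNF468 and ZNF708 were still called as risen and ZNF580, ZNF414, ZNF586, ZNF43, ZNF787, ZNF576, ZNF524, ZNF738, ZNF772 and ZNF551 as fallen. ZNF91 was not (log2 difference 0.17, adjusted p = 0.144), nor was ZNF581 (-0.15, adjusted p = 0.143).

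The members were then counted by cluster, beside 17.6% risen and 16.4% fallen over all genes tested. In cluster 9, 8 of 20 members tested rose and 0 fell, with a median log2 difference of 0.24, and its summed level went from 63.3, 59.6 and 63.5 to 80.4, 76.7 and 75.1 FPKM. In cluster 15, 8 of 23 rose and 1 fell, with a median of 0.19, and the sum went from 53.8, 53.6 and 54.6 to 69.9, 67.1 and 66.0 FPKM. Treated and untreated sums were apart in both clusters. In cluster 16, 3 of 50 members rose and 7 fell, with a median of 0.01, and its sum went from 184, 194 and 188 to 173, 172 and 179 FPKM. Cluster 16 is richer in GC (median 47.4%) than clusters 9 (41.6%) and 15 (42.6%).

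Cluster 5 has the lowest GC content of the large clusters, with a median of 38.6%, but a smaller median difference than clusters 9 and 15. Of its 20 members tested, 5 rose and 2 fell, the median log2 difference was 0.03, and the sums of treated libraries (50.9, 49.8 and 49.9 FPKM) overlapped with those of untreated ones (50.3, 45.4 and 49.5 FPKM). With the GC trend removed, which left 14.7% of all genes risen and 15.7% fallen, 2 of its members were up, 7 were down and the median was -0.11, whereas the medians of clusters 9 and 15 were 0.12 and 0.08. ZNF85 had a log2 difference of -0.20 (adjusted p = 0.118) before and -0.32 (adjusted p = 0.0262) after removal of the trend. The difference between clusters was not tested.

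**Figure D5:**
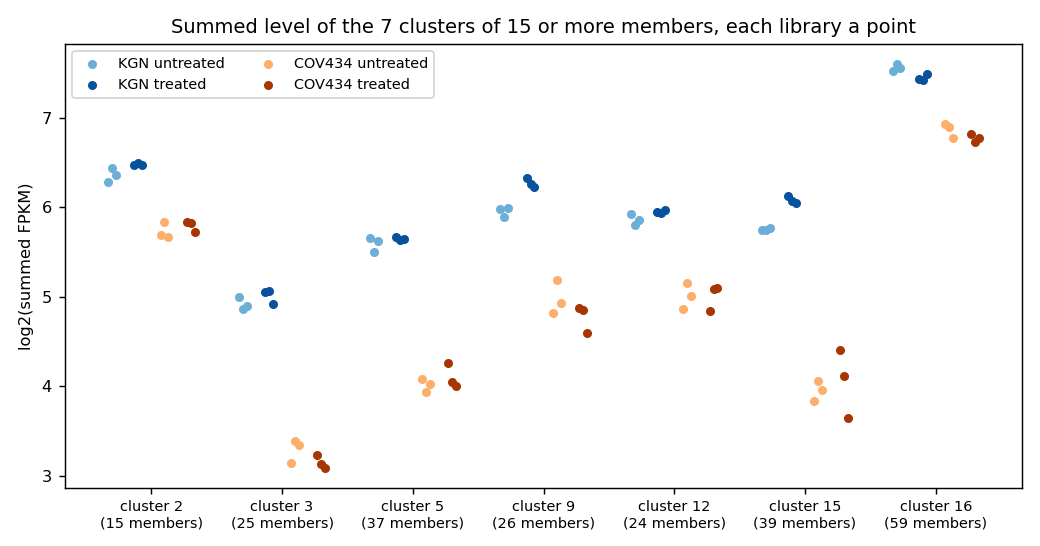
Summed FPKM, as log2, of the members of each of the 7 clusters with 15 or more members, each point a library. Treated libraries labelled KGN lie above untreated ones in clusters 2, 9, 12 and 15, below them in cluster 16 and overlap with them in clusters 3 and 5, and every library labelled COV434 lies below every library labelled KGN in each cluster.

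Members between 0.1 and 1 FPKM were outside this fit. A fit of voom on the reads recovered from FPKM, over genes of at least 0.1 FPKM, called 12.6% of 21625 genes as risen and 10.9% as fallen, and 53 and 15 of 221 members. Of the 50 members between 0.1 and 1 FPKM, 7 rose and 2 fell. ZNF506 had the smallest p of them, with a mean of 0.338 ± 0.0372 FPKM untreated and 0.683 ± 0.0676 FPKM treated (SD, n = 3, log2 difference 1.01 ± 0.18, adjusted p = 0.000359), and ZNF492 fell with a log2 difference of -0.74 (adjusted p = 0.00558). These members were named after their values were seen, and in ZNF491, which had the largest fold (log2 difference 2.18), the call rests on 8 untreated and 27 treated reads.

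Some members have known roles outside this comparison. ZNF91 rose in the libraries labelled KGN, from 2.85, 2.67 and 3.21 to 4.18, 3.49 and 3.77 FPKM (log2 difference 0.30, adjusted p = 0.0267), with the treated libraries all above the untreated. ZNF93, which represses LINE-1 elements, was under 0.12 FPKM in every library labelled KGN and between 0.2 and 0.328 FPKM in those labelled COV434. ZNF274, which recruits SETDB1 to the ends of zinc finger genes, was 3.43, 3.93 and 3.36 FPKM untreated and 2.94, 3.38 and 3.14 treated (log2 difference -0.14, adjusted p = 0.187), with overlapping groups. ZNF350, a partner of BRCA1, was between 0.413 and 0.593 FPKM in the libraries labelled KGN. ZNF675, a regulator of TRAF6 signaling, had a log2 difference of 0.25 (adjusted p = 0.0564), ZNF224 of 0.10 (adjusted p = 0.396), ZNF444 of -0.21 (adjusted p = 0.112) and ZNF574 of -0.12 (adjusted p = 0.295). Exons of an antisense gene cover 40.5% of the exon bases of ZNF224. Between the untreated lines, ZNF274, ZNF331, ZNF675 and ZNF444 were higher in the libraries labelled KGN, with log2 differences of 0.28, 0.89, 0.39 and 0.28, and ZNF574 was not called (-0.23, adjusted p = 0.11). ZNF536, a gene of the nervous system, was at most 0.0319 FPKM in the 12 libraries.

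Under the COV434 label, the same treatment gave no member past an adjusted p under 0.05 in limma. Of the 12060 genes tested, 0.0415% were called in either direction, 5 genes in all, and of 78 members 0 rose and 0 fell. Voom on the recovered reads also called 0 members, against 0.116% higher and 0.158% lower of all genes. At an unadjusted p under 0.05, 0 members were higher and 1 was lower, against 3.52% and 4.49% of all genes. Because same-numbered libraries of this line deviated together, a fit with the replicate number as a block was made too. It gave 1 member higher and 3 lower at an unadjusted p under 0.05, against 6.85% and 7.57% of all genes. Past an adjusted p under 0.05 it gave 0 members, against 0.323% higher and 0.398% lower of all genes. The median log2 difference was -0.04 over the members and -0.02 over all genes. The median standard error of a member was 0.17, against 0.085 in the libraries labelled KGN.

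ZNF45, a KRAB zinc finger gene of cluster 12 (ENSG00000124459, chr19:43912629-43935278), had the smallest p of the members in that line. It was 4.41, 3.64 and 3.76 FPKM in untreated and 1.89, 2.55 and 2.49 FPKM in treated libraries labelled COV434, a log2 difference of -0.58 ± 0.16 (SE, unadjusted p = 0.00561, adjusted p = 0.283). Every treated library was below every untreated one. In a fit of all 12 libraries, which pools the spread of both lines, its adjusted p was 0.00874. The next by p were ZNF787 (-0.36, adjusted p = 0.641), ZNF304 (-0.31, adjusted p = 0.708), ZNF134 (-0.30, adjusted p = 0.744) and ZNF444 (-0.23, adjusted p = 0.761) on the negative side and ZNF526, ZNF550, ZNF358, ZNF761 and ZNF581 on the positive side, with log2 differences of 0.32, 0.26, 0.26, 0.27 and 0.23 and adjusted p of 0.729 to 0.879. None of these 9 was called.

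The difference between the responses of the lines was tested as the interaction of line and treatment over all 12 libraries. At an adjusted p under 0.05, 3.6% of 13127 genes differed, and 1 of 128 members did, ZNF45. It was 5.51, 6.06 and 5.59 FPKM in untreated and 5.88, 5.63 and 5.85 FPKM in treated libraries labelled KGN, which overlap, and the difference of the responses was 0.59 ± 0.14 on the log2 scale (SE, adjusted p = 0.0407). With the replicate number as a block the adjusted p was 0.0897. Leaving out 1 library at a time gave 0 to 4 members with a difference, 3 without untreated library 1 and 4 without treated library 1 labelled COV434. At an unadjusted p under 0.05, 21 members had a positive difference and 5 a negative one, against 9.59% and 8.44% of all genes. Of the 33 members that rose under the KGN label, 28 entered this test and 0 were called, and of the 12 that fell, 10 entered and 0 were called. A difference between the lines was therefore not shown for them, which does not show that the lines responded alike. Of these members, 11 and 8 were tested under the COV434 label, with median log2 differences there of -0.01 and -0.09.

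The proteins that KRAB zinc finger proteins act through were examined by a list of 28 genes. In the libraries labelled KGN, 28 were tested, 3 rose and 9 fell, against 17.6% and 16.4% of all genes, with a median log2 difference of -0.10. TRIM28, which lies just beyond cluster 16 on the same chromosome, went from 80.8, 92.2 and 89.0 to 63.0, 62.6 and 64.3 FPKM (log2 difference -0.46 ± 0.06, adjusted p = 0.00193). SETDB1 went from 5.60, 6.25 and 5.95 to 5.07, 4.47 and 4.43 FPKM (log2 difference -0.30, adjusted p = 0.0136). The treated libraries were below the untreated ones for both. The largest falls were those of UHRF1 and DNMT1, which maintain DNA methylation, and of SUV39H1, a histone H3 lysine 9 methyltransferase, by 1.01, 0.59 and 0.68 on the log2 scale. CBX1, an HP1 protein, EHMT2, MORC2 and DNMT3B also fell, by 0.23, 0.19, 0.32 and 0.40. FAM208A, a subunit of the HUSH complex, ATRX and MORC3 rose by 0.17, 0.30 and 0.15. Of the 9 that fell, 7 had a GC content above 50%, and each of the 3 that rose was below 40%. With the GC trend removed, 0 genes of the list rose and 10 fell, against 14.7% and 15.7% of all genes.

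In the libraries labelled COV434, 25 genes of this list were tested and 0 were called at an adjusted or an unadjusted p under 0.05. Of all genes tested, 0.0415% were called at the adjusted threshold, and 3.52% were higher and 4.49% lower at the unadjusted one. In the interaction, 0 of 28 were called, against 3.6% of all genes. At an unadjusted p under 0.05, 3 had a negative difference and 0 a positive one, against 8.44% and 9.59% of all genes. With the replicate number as a block, SUV39H1 was called (difference -0.55, adjusted p = 0.0415, against 0.0511 without the block), as it was with a pseudocount of 0.1. The block called 2.06% of all genes as positive and 2.22% as negative. Without treated library 1 labelled COV434, SUV39H1, UHRF1 and ATRX were called, without untreated library 1 SUV39H1, UHRF1 and DNMT1, and without treated library 3 SUV39H1. No other alternative called a gene of the list, and shares of all genes without a library are not given here, so these calls are values only. TRIM28 was abundant under both labels, with 79.9 ± 10.3 FPKM (SD, n = 3) in untreated libraries labelled COV434, and the untreated groups overlapped (log2 difference 0.13, adjusted p = 0.376).

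Zinc finger genes of the same name pattern on other chromosomes, 263 in number with a median GC content of 44.9%, are given for comparison. In the libraries labelled KGN, 192 of them were tested, 39 rose and 17 fell, against 17.6% and 16.4% of all genes, with a median log2 difference of 0.06. Between the untreated lines, 150 of them reached 1 FPKM in both groups, of which 63 were higher and 26 lower under the KGN label, with a median of 0.24. The 76 members with such levels had 46 and 5, and all 10182 such genes 28.1% and 34.3%. The summed level of the genes on other chromosomes was 1137 to 1171 FPKM in untreated libraries labelled KGN and 857 to 991 FPKM under the COV434 label. In treated libraries it was 1118 to 1134 FPKM and 817 to 920 FPKM. Under the KGN label these treated sums lay below the untreated ones, whereas those of the members lay above. Whether the chromosome 19 genes differ from them was not tested.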

How the data were processed

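RNA was extracted with TRIzol and sequenced on an Illumina NovaSeq instrument by Novogene. The authors deposited 1 table of FPKM per gene and library, with the gene length as another column. The submitters' processing notes name HISAT2 2.0.5 and the builds mm10 and mm8, although the genes are human, and the annotation matches GENCODE 29 on GRCh38 in the coordinates of all 246 members. The counter and its strand setting are not given in the sources used here. FPKM multiplied by gene length fell on whole multiples of 1 step per library in at least 99.9% of values (tolerance 0.05), so whole reads were recovered.

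Fits were made with limma 3.58.1 in R 4.3.3, and tables with Python 3.11.15. Genes whose mean over the libraries of a fit reached 1 FPKM were tested on log2(FPKM + 1) by limma with a mean-variance trend, with Benjamini-Hochberg adjustment over all genes tested and a call at an adjusted p under 0.05. The treatment was fitted within each line, the interaction over all 12 libraries and the lines over the 6 untreated ones. GC content, C2H2 fingers, shared 100-base runs and exon overlap were computed from GRCh38 and GENCODE 29, and promoters came from RefSeq GRCh38.p14. Alternatives were a pseudocount and a filter of 0.1, no filter, median-ratio scaling, voom on recovered reads, removal of a GC trend by lowess, the replicate number as a block, 1 fit of all libraries and leaving out each library. Voom over genes of at least 0.1 FPKM and scaling to reads on genes were chosen after seeing the data. Scripts were tested on simulated data.

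Members, lists and tests were chosen with earlier results of these data known. Named are, per treatment comparison, up to 10 called members in each direction by p (5 in each direction by unadjusted p where under 5 were called), up to 8 by size between the lines, up to 6 in the interaction, the 10 most abundant, 10 fixed genes, and TRIM28, SETDB1 and called partners. The called members of a treatment comparison were named by p only where treated and untreated libraries did not overlap. Treated and untreated libraries labelled COV434 that share a number deviated together (correlations of deviations 0.400, 0.474 and 0.166). The main fits ignored this pairing, and only the fits with the replicate number as a block used it. In the libraries labelled KGN the correlations were -0.016, -0.018 and -0.019, so these share only a number.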

Additional observations from a re-analysis of the deposited data

Results flagged for a closer look

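The response of ZNF45 differed between the lines in the test of the interaction, and it was the only one of 128 members tested to do so. Its log2 difference was 0.02 under the KGN label and -0.58 under the COV434 label, a difference of 0.59 (adjusted p = 0.0407). Over 21 alternatives this value ranged from 0.50 to 0.79 and its adjusted p from 0.0329 to 0.118, and it was past the threshold in 7 of the 21.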

How the results depend on the processing

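In the libraries labelled KGN, 33 of 171 members tested rose, and this number was 17 of 236 with no filter, 50 with voom, 21 with the GC trend removed, 17 with the GC trend removed and the replicate block, 15 in 1 fit of all 12 libraries and 53 of 221 with voom at a filter of 0.1 FPKM. It ranged from 19 to 34 when 1 library was left out, with 19 without treated library 1, 20 without untreated library 2 and 20 without treated library 2. The 12 members that fell became 4 with no filter, 6 with the replicate block, 7 with the block and the GC trend removed and 3 in 1 fit of all libraries. They ranged from 3 to 11 when 1 library was left out, with 6 and 5 without untreated library 2 or 3, 3 and 4 without treated library 1 or 2 and 8 without treated library 3. The replicate block alone gave 24 risen members. In the libraries labelled COV434, 1 member fell in 1 fit of all 12 libraries, ZNF45.

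The 1 member with an interaction became 0 with a pseudocount of 0.1, with no filter, with voom and with the replicate block, and ranged from 0 to 4 when 1 library was left out, with 3 without untreated library 1 and 4 without treated library 1 labelled COV434. Between the untreated lines, 95 members higher under the KGN label became 171 at a filter of 0.1 FPKM, 162 with no filter and 173 with voom at a filter of 0.1 FPKM, which test more genes, and 90 with the replicate block. They ranged from 76 to 105 when 1 library was left out. The 5 lower members became 3 when libraries were scaled to reads on genes, and 2 to 5 when 1 library was left out. Over these alternatives, 283 values of members named in the KGN comparison kept their side of the threshold and 57 lost the call, and between the lines 173 kept it and 16 lost it. None of them reversed, and the causes of the other changes were not tested. Depth limits members under 1 FPKM.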
